A study of Sus scrofa with 28 samples.

Results

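CCL2, CXCL2, CXCL12 and CX3CL1, 4 chemokine genes of a kidney qPCR panel, were examined in all 28 animals of the series. They were taken by name from the 73 kidney genes of the table, which also holds 4 reference assays. The animals were adult castrated male Göttingen Minipigs. The SD group (7 animals) received a standard diet, the FFC group (13 animals) a diet rich in fat, fructose and cholesterol, and the FFC-DIA group (8 animals) an FFC diet together with diabetes induced by streptozotocin, which destroys the beta cells of the pancreas. No group had diabetes without the diet. By the study's methods the FFC animals had more cholesterol in the diet during the first months than the FFC-DIA animals, which were also given insulin daily, so FFC-DIA vs. FFC holds diabetes, insulin and this difference in diet together and they cannot be told apart. The RNA came from unsorted cortical tissue of the left kidney, in which fewer cells of a type and less RNA per cell cannot be told apart.

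Chemokines are small secreted proteins that direct the movement of cells through receptors on the cell surface. CCL2 attracts monocytes through CCR2, and CXCL2 attracts neutrophils; both are inducible, switched on by inflammatory signals such as TNF and IL1B. CXCL12 is called homeostatic, since many tissues make it continuously, and it acts through CXCR4 on leukocytes, progenitor cells and vessels. CX3CL1 (fractalkine) is made as a membrane-bound protein on endothelial and epithelial cells, where it can hold leukocytes in place, and is also released in soluble form. In the kidney, CCL2 from tubular and other resident cells is a well known sign of inflammation in diabetic and other nephropathies.

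The primer pairs define what was measured, and they are shown so that each transcript can be traced. The 8 primers were 20 to 23 bases long, with a GC content of 35 to 60%, and are written 5′ to 3′ in lower case with no part marked.
CCL2 forward: gcaagtgtcctaaagaagcagtg
CCL2 reverse: tccaggtggcttatggagtc
CXCL2 forward: cggaagtcatagccactctcaa
CXCL2 reverse: tacatcagttggcactgctctt
CXCL12 forward: tgcattgacccaaaattgaa
CXCL12 reverse: gtgatgccgacagtagtgct
CX3CL1 forward: atcatgcggccaaaatgtcg
CX3CL1 reverse: cccggcggtttagatagtcc
All 4 symbols are listed in the pig RefSeq gene table.

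The measured quantity is the quantification cycle (Cq), the PCR cycle at which the fluorescence of the product is first detected. An early Cq stands for much transcript and a late Cq for little. The mean Cq over 28 animals was 10.5 for CX3CL1, 11.6 for CCL2, 11.8 for CXCL12 and 13.0 for CXCL2, against a median of 11.8 over the mean Cq of the 73 genes. These values do not rank the transcripts, because assays differ in efficiency. Values were put on 2 scales. For the log2 relative quantity the Cq of the gene was subtracted from the average Cq of 3 reference genes (ACTB, TBP1 and RPL4). The log2 value relative to the panel mean is the mean Cq of the 73 kidney genes in the animal minus the Cq of the gene. On both scales the SD mean is 0 and 1 unit is taken as a doubling. Each pair of groups was tested with an exact permutation test (two-sided), with Benjamini-Hochberg (BH) adjustment over the 73 genes of each comparison at 0.05. Differences are given with their standard error (SE) and group values with the standard deviation.

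The scale matters for these genes. Against the reference genes, 65 of 73 genes had a higher mean in FFC than in SD and the median difference was 0.55, while relative to the panel mean it was 0.03. The reference gene RPL4 came up later in FFC (mean Cq 9.30) than in SD (7.86) or FFC-DIA (8.11), and a later RPL4 raises the log2 relative quantity of every gene of the animal. Markers of the tissue were measured throughout, with a mean Cq of 9.60 for the epithelial CDH1, 10.3 for the endothelial CDH5 and 16.6 for the podocyte gene NPHS1. No label gives the number of cDNA replicates behind an animal's values. It was inferred from the decimals of the Cq values, a mean of 2 replicates being able to carry a 4th decimal, and 5 of 7 SD, 2 of 13 FFC and 1 of 8 FFC-DIA animals had none and were taken as single replicates.

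CXCL12 was significantly higher in FFC than in SD when set against the reference genes, and it was the only chemokine gene of the 4 to pass in this comparison. The log2 relative quantity of the SD animals was -0.53 at the lowest, -0.11 at the median and 1.22 at the highest. In FFC it was 0.25, 0.97 and 1.52. All 13 FFC animals lay above the SD mean, and 3 of them above every SD animal. SD animal 6 alone overlapped the FFC range, as the next highest SD value was 0.07. The difference was 0.86 (SE 0.25), a 1.81-fold higher level with a 95% interval of 0.39 to 1.31 on the log2 scale (exact permutation test, p = 0.00164, BH-adjusted p = 0.0448). Of all 73 genes, 19.2% passed this test, and 17.8% passed as higher in FFC.

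The FFC-DIA animals held CXCL12 values between those of the other groups. Their log2 relative quantities ran from -0.23 through a median of 0.29 to 0.99. The group mean was 0.34 ± 0.45 (standard deviation, n = 8), against 0.86 ± 0.41 (n = 13) in FFC. FFC-DIA was 0.52 below FFC, a log2 difference of -0.52 (SE 0.20, 95% interval -0.92 to -0.12), which did not pass (exact permutation test, p = 0.0142, BH-adjusted p = 0.148). In that comparison 7 of 8 FFC-DIA animals lay below the FFC mean, 4 lay below every FFC animal, and 5.48% of the 73 genes passed. On the panel scale the difference was -0.24 (SE 0.30, 95% interval -0.80 to 0.31, exact permutation p = 0.365), and with ACTB alone it was 0.034, so both its size and its sign depended on the reference. Between FFC-DIA and SD the difference was 0.34 (SE 0.27, exact permutation p = 0.226, BH-adjusted p = 0.718), in a comparison in which 2.74% of genes passed. It was 0.10 on the panel scale (SE 0.37, exact permutation p = 0.792). Of these neighbours in the order FFC, FFC-DIA, SD, neither FFC and FFC-DIA nor FFC-DIA and SD passed the test after adjustment over the 73 genes. In the permutation test over the 3 groups CXCL12 had p = 0.00199, which did not pass Bonferroni correction (adjusted p = 0.145), as 5.48% of genes did.

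**Figure D1:**
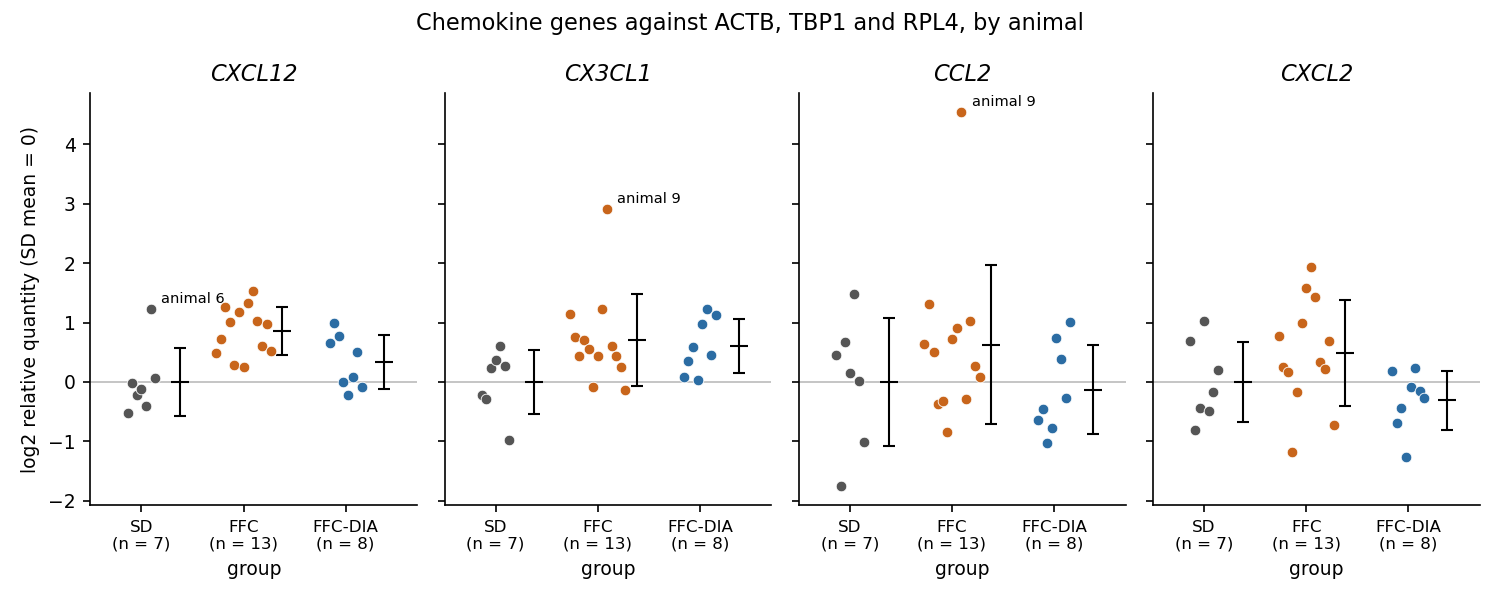
Log2 relative quantity against ACTB, TBP1 and RPL4 (y axis, SD mean = 0) by group (x axis), 1 panel per gene; points are animals, and the bar beside them is the group mean with its standard deviation. All 13 FFC animals lie above the SD mean in CXCL12, and FFC animal 9 stands apart in CCL2 (4.54) and CX3CL1 (2.91).

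The higher CXCL12 in FFC was not called relative to the panel mean. There FFC exceeded SD by 0.34 (SE 0.29, 95% interval -0.20 to 0.88, exact permutation p = 0.197, BH-adjusted p = 0.689), and 1.37% of all genes passed. With RPL4 as the only reference gene the difference was 1.68 (exact permutation test, BH-adjusted p = 0.0144). It was 0.39 with ACTB alone and 0.51 with TBP1 alone, neither past the threshold. With GAPDH alone it was -0.47, a sign set by SD animal 6, whose GAPDH Cq was 20.6. Without this animal the GAPDH value was 1.44 (exact permutation test, BH-adjusted p = 0.334). Within strata of the inferred cDNA replicate number it was 0.69 and did not pass (exact permutation within strata, BH-adjusted p = 0.143). Without SD animal 6 the difference against the 3 reference genes was 1.06 (exact permutation test, BH-adjusted p = 0.00269). Leaving out any 1 of 9 other animals (4 SD and 5 FFC) took the adjusted p above 0.05, up to 0.0926 without SD animal 2. The part of RPL4 and of the inferred number of cDNA replicates in this difference was not tested beyond these values.

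**Figure D2:**
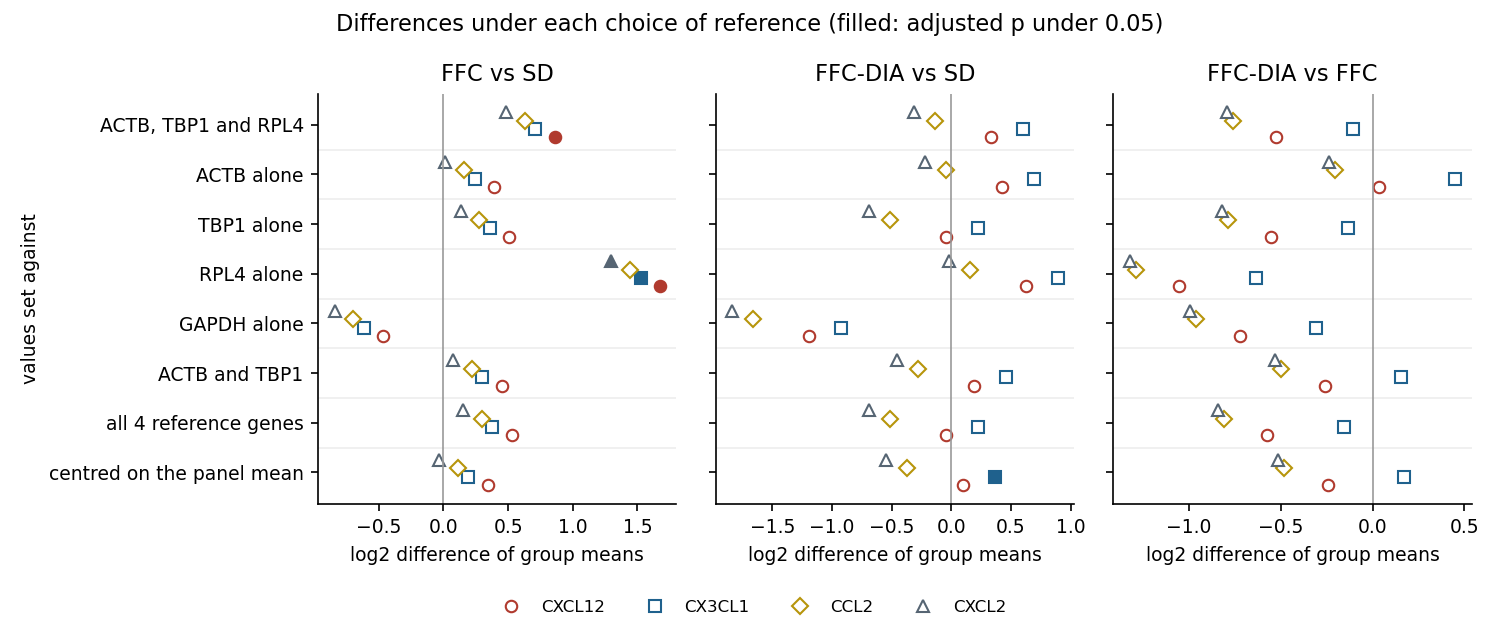
Log2 difference of group means (x axis) when values are set against each choice of reference (y axis), for FFC vs. SD, FFC-DIA vs. SD and FFC-DIA vs. FFC; filled symbols passed at a BH-adjusted p under 0.05. For FFC vs. SD, CXCL12 runs from 0.34 (panel mean) to 1.68 (RPL4 alone) apart from GAPDH alone, where it is -0.47 with SD animal 6 and 1.44 without it, and CX3CL1 passes in FFC-DIA vs. SD with the panel mean.

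CX3CL1 was higher in FFC-DIA than in SD in relation to the rest of the panel. Relative to the panel mean, the SD animals had values of -0.47 at the lowest, 0.10 at the median and 0.19 at the highest. The FFC-DIA animals had 0.25, 0.36 and 0.48. All 8 FFC-DIA animals were therefore above all 7 SD animals, and the FFC-DIA values lay close together (standard deviation 0.09, n = 8). The difference was 0.37 (SE 0.10, 95% interval 0.19 to 0.57), a 1.29-fold higher level (exact permutation test, p = 0.000155, the smallest the 6435 splits allow, BH-adjusted p = 0.00567). CX3CL1 shared this smallest p of the 73 genes with CDKN1A, a cell cycle inhibitor. In this comparison 4.11% of genes passed and the groups did not overlap in 2.74%. This was the only pass among the 12 comparisons of chemokine genes on the panel scale, and the adjustment covers the genes of 1 comparison, not the 3 comparisons or both scales.

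This CX3CL1 difference held its call when any 1 of the 15 animals was left out, with BH-adjusted p of 0.0122 to 0.0213 (exact permutation test). It was lost with 2 changes of method. Centred on the median of the 73 genes in place of the mean it was 0.21 (exact permutation test, BH-adjusted p = 0.180). In limma, whose estimate of spread also takes in the FFC group, it was 0.37 with an adjusted p of 0.186. Within strata of the inferred cDNA replicate number the difference was 0.32 (exact permutation within strata, p = 0.0139). With animals of the same number in the sample titles taken as pairs (the replicate block) it was 0.36 (exact sign-flip test of the pairs, p = 0.0156). The smallest p-values these tests allow are 0.00463 (216 arrangements) and 0.0156 (7 pairs). At these 1 gene alone cannot pass the adjustment, so a call missing there does not bear on this one. Endothelial genes were not called in the same comparison: the median difference of CDH5, NOS3 and VCAM1 relative to the panel mean was -0.26, against -0.02 over all genes.

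**Figure D3:**
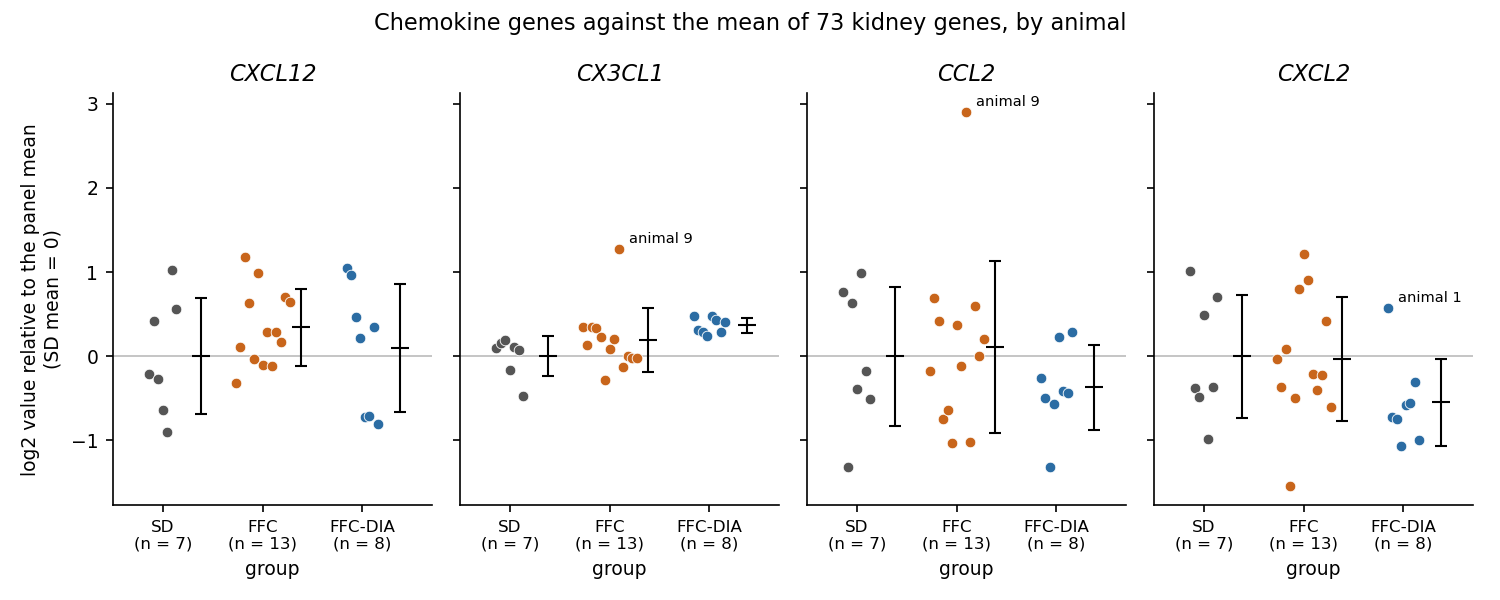
Log2 value relative to the mean of the 73 kidney genes in the animal (y axis, SD mean = 0) by group (x axis), 1 panel per gene; points are animals, and the bar beside them is the group mean with its standard deviation. In CX3CL1 the 8 FFC-DIA animals (0.25 to 0.48) lie above the 7 SD animals (-0.47 to 0.19).

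Against the reference genes, the mean of CX3CL1 lay above SD in both FFC and FFC-DIA, but neither difference passed. The log2 relative quantities of SD were -0.97 at the lowest, 0.23 at the median and 0.61 at the highest. Those of FFC were -0.14, 0.55 and 2.91, and those of FFC-DIA 0.04, 0.52 and 1.23. FFC exceeded SD by 0.71 (SE 0.29, exact permutation p = 0.0335, BH-adjusted p = 0.0978; 0.19 on the panel scale, SE 0.14, p = 0.258), and FFC-DIA exceeded SD by 0.60 (SE 0.26, exact permutation p = 0.0336, BH-adjusted p = 0.379). All 8 FFC-DIA animals and 11 of 13 FFC animals were above the SD mean. FFC-DIA and FFC differed by -0.11 (SE 0.27, 95% interval -0.73 to 0.49, exact permutation p = 0.768), and relative to the panel mean by 0.17 (SE 0.11, exact permutation p = 0.236), with all 8 FFC-DIA animals above the FFC mean and 8.22% of all genes past the test. Without FFC animal 9 this last difference was 0.26 and passed (exact permutation test, BH-adjusted p = 0.0359).

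CCL2, the monocyte attractant, did not differ significantly between any pair of groups on either scale, and its animals were the most widely spread of the 4 genes. Its standard deviation within groups was 1.14 on the log2 scale, against 0.47 for CXCL12, 0.64 for CX3CL1 and 0.74 for CXCL2. This value includes FFC animal 9 (4.54, next highest in FFC 1.31) and was not computed without it. In SD (1.08) and FFC-DIA (0.75), which lack this animal, CCL2 also had the largest standard deviation of the 4 genes. The SD animals ran from -1.76 through 0.14 to 1.48 in log2 relative quantity. The FFC animals ran from -0.84 through 0.50 to 4.54, and the FFC-DIA animals from -1.02 through -0.37 to 1.01. The groups overlapped broadly, and only FFC animal 9 lay outside the SD range among the FFC animals. FFC exceeded SD by 0.63 (SE 0.55, 95% interval -0.55 to 1.85, exact permutation p = 0.325), which fell to 0.30 without FFC animal 9. FFC-DIA was below FFC by a difference of -0.76 (SE 0.45, 95% interval -1.83 to 0.24, exact permutation p = 0.153), or -0.43 without that animal. FFC-DIA and SD differed by -0.13 (SE 0.49, 95% interval -1.14 to 0.90, exact permutation p = 0.779). On the panel scale FFC and SD differed by 0.11 (SE 0.42, exact permutation p = 0.821) and FFC-DIA and SD by -0.37 (SE 0.36, exact permutation p = 0.308). FFC-DIA and FFC differed there by -0.48 (SE 0.33, exact permutation p = 0.247), or by -0.25 without FFC animal 9. The intervals against the reference genes leave differences of more than a doubling in CCL2 undetermined.

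CXCL2, the neutrophil attractant, had its lowest mean in FFC-DIA, but no difference passed after adjustment. Its log2 relative quantities in SD were -0.81 at the lowest, -0.17 at the median and 1.02 at the highest. In FFC they were -1.17, 0.33 and 1.93, and in FFC-DIA -1.27, -0.21 and 0.24. All 8 FFC-DIA animals lay below the FFC mean, although the 2 groups overlapped. FFC-DIA was below FFC by a difference of -0.79 (SE 0.30, 95% interval -1.51 to -0.07, exact permutation p = 0.0331, BH-adjusted p = 0.201). Relative to the panel mean the difference was -0.51 (SE 0.27, exact permutation p = 0.101). FFC differed from SD by 0.48 (SE 0.35, exact permutation p = 0.224) against the reference genes and by -0.03 (SE 0.34) relative to the panel mean, so the direction of that difference turned with the scale. FFC-DIA and SD differed by -0.31 (SE 0.31, exact permutation p = 0.322) and, relative to the panel mean, by -0.55 (SE 0.33, exact permutation p = 0.108).

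The CXCL2 assay was also examined as a measurement. Its Cq values carry up to 8 decimals, those of the other 76 assays at most 4. Within groups its Cq followed the mean Cq of the other genes with r = 0.42, the 7th lowest of 73 genes, where the median gene had 0.78. The value for CCL2 was also low, 0.50. Setting the genes against the reference genes lowered the spread within groups in 63 of 73, but raised it in both CXCL2 (from 0.66 cycles to 0.74) and CCL2 (from 0.998 to 1.14). The CCL2 values include FFC animal 9, whose Cq of 8.57 lay far below the next lowest of its group (11.2). They were not computed without it, so they are not shown to be a property of the assay. In the deposited fold-change table the row named CXCL2 holds the values of ADGRE1, so no second source for CXCL2 was used.

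**Figure D4:**
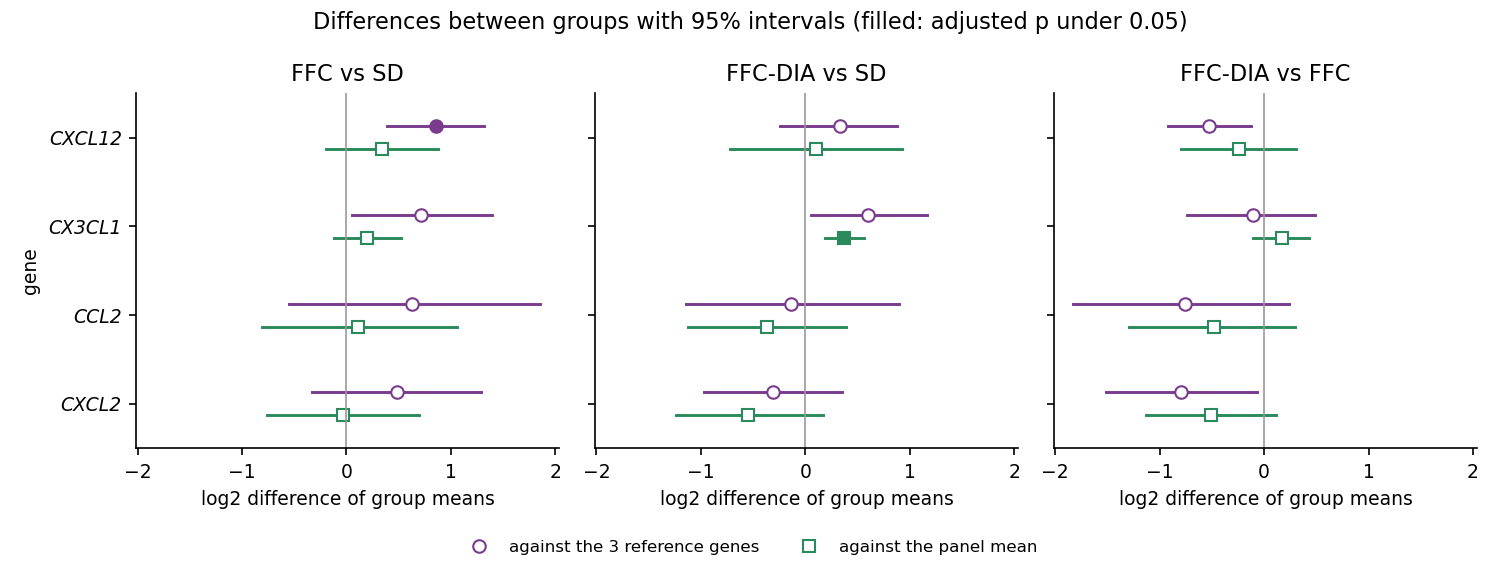
Log2 difference of group means (x axis) with its 95% interval for each gene (y axis), in FFC vs. SD, FFC-DIA vs. SD and FFC-DIA vs. FFC; circles are set against the 3 reference genes, squares against the panel mean, and filled symbols passed at a BH-adjusted p under 0.05. Of the 24 differences, CXCL12 in FFC vs. SD (0.86, reference genes) and CX3CL1 in FFC-DIA vs. SD (0.37, panel mean) passed.

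The inducible genes and CX3CL1 were set directly against the homeostatic CXCL12 by subtracting the Cq of each from that of CXCL12 in the same animal, a value in which the reference genes cancel. None of CCL2, CXCL2 and CX3CL1 differed significantly from CXCL12 in any of the 3 pairs of groups, in the exact permutation test or in limma, and none reached an unadjusted p under 0.05, as 12.5% (FFC vs. SD), 4.17% (FFC-DIA vs. SD) and 9.72% (FFC-DIA vs. FFC) of the 72 genes tested in this way did. The largest difference was that of CXCL2 in FFC-DIA vs. SD, at -0.65 (SE 0.43, 95% interval -1.57 to 0.27, exact permutation p = 0.154, BH-adjusted p = 0.953). For CCL2 it was -0.23 (SE 0.62, 95% interval -1.48 to 1.04) in FFC vs. SD, -0.47 (SE 0.65, -1.86 to 0.92) in FFC-DIA vs. SD and -0.24 (SE 0.52, -1.37 to 0.87) in FFC-DIA vs. FFC. For CXCL2 it was -0.38 (SE 0.43, 95% interval -1.26 to 0.51) in FFC vs. SD and -0.27 (SE 0.34, -1.03 to 0.49) in FFC-DIA vs. FFC. For CX3CL1 it was -0.15 (SE 0.35, 95% interval -0.86 to 0.56) in FFC vs. SD, 0.27 (SE 0.41, -0.62 to 1.15) in FFC-DIA vs. SD and 0.42 (SE 0.34, -0.28 to 1.11) in FFC-DIA vs. FFC. Among these 72 genes 2.78% passed after adjustment in FFC vs. SD, 1.39% in FFC-DIA vs. SD and 1.39% in FFC-DIA vs. FFC. The estimates of CCL2 and CXCL2 were below 0 in all 3 pairs, with intervals that all include 0. CXCL12 passed in FFC vs. SD where CCL2 and CXCL2 did not, but this is not a shown difference between the genes.

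A single animal held the highest CCL2 and CX3CL1 values of the 28. FFC animal 9 had a CCL2 Cq of 8.57, a relative quantity of 23.3 times the SD level, where the next highest of the 28 animals had a log2 value of 1.48 against its 4.54. Its CX3CL1 was 7.54 times the SD level (log2 2.91, next highest 1.23). Its RPL4 Cq of 11.6 was also the latest of all animals, but relative to the panel mean it remained highest in CCL2 (2.90, next 0.99) and CX3CL1 (1.27, next 0.48). On that scale this animal was the highest of the 28 in 6 genes and the lowest in 7. Of 7 cytokines and their receptors it was highest in IL1B (2.91) and TNFRSF1B (0.80), while TNF (1.15) lay below another animal (1.52) and IL6 (-1.14) and TLR2 (-0.53) were below the SD mean. CXCL12 (-0.12) and CXCL2 (-0.21) of the same animal lay within the range of its group relative to the panel mean. Against the reference genes its CXCL12 was the highest of the 28 animals (1.52, next 1.32). Of the 2 inducible chemokines, CCL2 lay far above the group of this animal and CXCL2 within it.

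CCL2 and CX3CL1 were positively correlated across animals, and the correlation was lower without that animal. With group means removed and relative to the panel mean, their Pearson correlation over 28 animals was 0.68 (permutation within groups, p = 0.00527, BH-adjusted p = 0.104 over 2628 gene pairs), with a Spearman rho of 0.38 (permutation p = 0.0605). It was 0.33 without FFC animal 9, with the group means taken anew. Without the 2 animals farthest from the CCL2 median (FFC animal 9 and SD animal 2) it was 0.49. There the group means were still those of all 28 animals, so the 2 values cannot be compared. Taken by group it was 0.33 (SD), 0.78 (FFC) and 0.65 (FFC-DIA). Against the reference genes the correlation was 0.83 (BH-adjusted p = 0.000217, permutation within groups), but there 55.4% of all gene pairs, which share the reference genes, passed. Relative to the panel mean 2.93% of pairs passed, and none of the 6 pairs of chemokine genes did.

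CCL2 and CXCL12 were negatively correlated within every group relative to the panel mean, though not past adjustment. Their correlation was -0.40 (permutation within groups, p = 0.0229, BH-adjusted p = 0.218) with a Spearman rho of -0.45 (permutation p = 0.0198). Taken by group it was -0.58 (SD), -0.32 (FFC) and -0.54 (FFC-DIA). It was -0.40 without FFC animal 9, with the group means taken anew. Without the 2 animals farthest from the CCL2 median it was -0.38, with the group means of all animals kept. Against the reference genes it was -0.03 over all animals and -0.36 without FFC animal 9, and by group -0.27 (SD), 0.36 (FFC) and -0.71 (FFC-DIA). CCL2 and CXCL2, both inducible, had a correlation of -0.00046 relative to the panel mean and 0.38 against the reference genes (permutation within groups, p = 0.077), neither past adjustment.

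**Figure D5:**
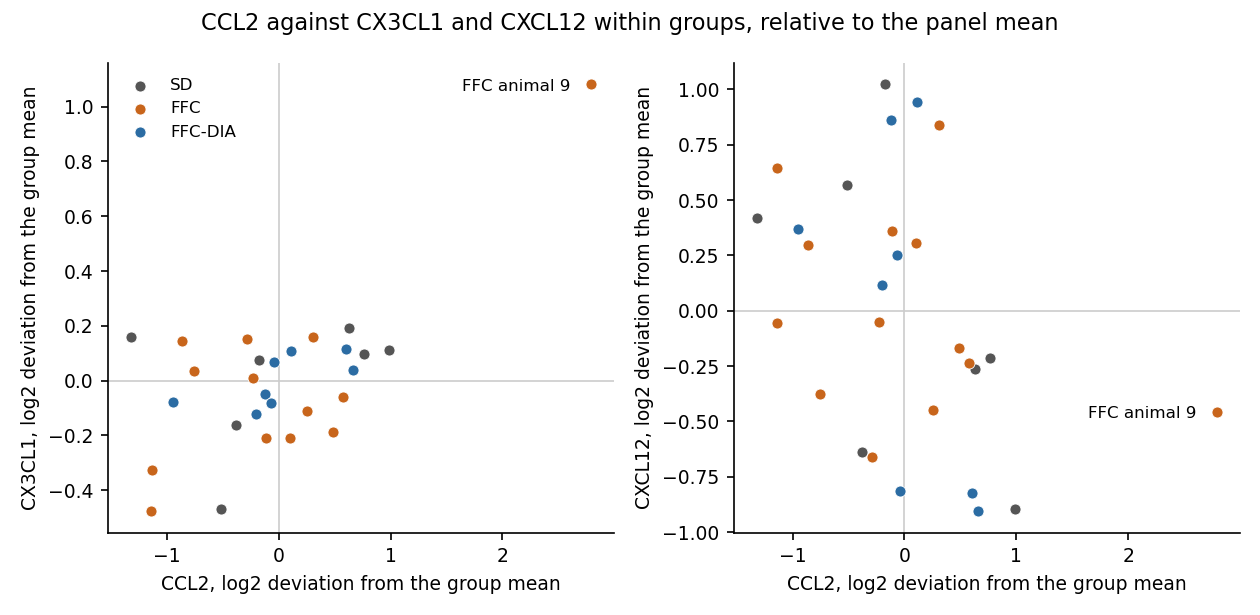
CX3CL1 (left, y axis) and CXCL12 (right, y axis) against CCL2 (x axis), each as the log2 deviation from the group mean relative to the panel mean; points are animals coloured by group. FFC animal 9 lies far from the others, and the correlation of CCL2 with CX3CL1 is 0.68 with it and 0.33 without it, while that of CCL2 with CXCL12 (-0.40) is the same without it.

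The genes most like each chemokine were named by the highest Pearson correlation on the panel scale with group means removed, over 28 animals that share panel mean and chip. For CCL2 these were CX3CL1 (0.68), the endothelial adhesion molecule VCAM1 (0.66) and the cytokine TNF (0.63), and without FFC animal 9 the value was 0.27 for VCAM1 and 0.58 for TNF. For CX3CL1 they included VCAM1 (0.69) and CCL2, and the value for VCAM1 was 0.18 without that animal. For CXCL12 they included the vascular growth factor VEGFA (0.67) and AGER, the receptor for advanced glycation end products (0.61). Those values were 0.68 and 0.60 without FFC animal 9. CXCL2 had no close neighbour, its highest values being 0.30 for COL4A2, 0.29 for ENPP1 and 0.28 for TNF.

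The upstream cytokines and the target cells of these chemokines were read from 4 lists, chosen with results of these data known. Of 7 cytokines and their receptors (TNF, IL1B, IL6, TNFRSF1A, TNFRSF1B, TLR2 and TLR4) none passed the exact permutation test after adjustment in any pair of groups on either scale. At an unadjusted p under 0.05 there were 0, 1 and 2 in FFC vs. SD, FFC-DIA vs. SD and FFC-DIA vs. FFC against the reference genes and 2, 1 and 0 relative to the panel mean. The shares of all genes at that p were 37%, 11% and 21.9% against the reference genes and 15.1%, 15.1% and 17.8% relative to the panel mean. In limma 1 was called, IL6, in FFC-DIA vs. SD relative to the panel mean. Their median difference against the reference genes was 0.29 in FFC vs. SD, below the 0.55 of all genes, -0.05 in FFC-DIA vs. SD (all genes 0.21) and -0.41 in FFC-DIA vs. FFC (all genes -0.33). IL6 had the largest of these differences, -1.21 relative to the panel mean in FFC-DIA vs. SD (SE 0.36, exact permutation p = 0.00684, BH-adjusted p = 0.0891). TNFRSF1B had 0.74 in FFC vs. SD against the reference genes (SE 0.39, BH-adjusted p = 0.132, exact permutation test).

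CCR2, the receptor of CCL2 on monocytes, did not pass in any pair on either scale. Its differences against the reference genes were 0.58 (SE 0.46) in FFC vs. SD, 0.36 (SE 0.49) in FFC-DIA vs. SD and -0.22 (SE 0.26) in FFC-DIA vs. FFC. Of the 8 leukocyte markers, which include CCR2, MRC1 of tissue macrophages was higher in FFC than in SD against the reference genes by 0.86 (SE 0.26, exact permutation test, BH-adjusted p = 0.0448), the same size as CXCL12. The other 7 did not pass there, where 19.2% of all genes did, and the median of the list was 0.55, that of all genes. Relative to the panel mean MRC1 had 0.34 in that comparison and did not pass. On that scale the T-cell gene CD8A was lower than in SD in both FFC (-1.40, SE 0.35, BH-adjusted p = 0.0264) and FFC-DIA (-1.04, SE 0.34, BH-adjusted p = 0.0416, exact permutation tests), with a late mean Cq of 18.1. Against the reference genes CD8A had -0.89 in FFC vs. SD and did not pass (BH-adjusted p = 0.0875, exact permutation test). The other T-cell genes of the list, CD3E and CD4, named after their values were seen, did not pass, with -0.03 and -0.13 relative to the panel mean and 0.49 and 0.39 against the reference genes in FFC vs. SD. The macrophage gene CD68 was higher in FFC-DIA than in FFC by 0.72 on the panel scale (SE 0.19, exact permutation test, BH-adjusted p = 0.0261), where the median of the 8 markers was 0.04 and 8.22% of all genes passed. CD68 had 0.44 there against the reference genes and did not pass (BH-adjusted p = 0.347, exact permutation test). ADGRE1, another macrophage gene, had -0.22 on the panel scale and -0.50 against the reference genes in that comparison, neither past adjustment. The part of leukocyte content in the chemokine values was not tested.

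Resident cells gave the remaining values. None of the 3 endothelial genes passed on either scale in the exact permutation test or limma. At an unadjusted p under 0.05 there was 1 in each of FFC vs. SD and FFC-DIA vs. FFC against the reference genes and 1 in FFC-DIA vs. FFC relative to the panel mean, where 37%, 21.9% and 17.8% of all genes had such a p. NOS3, the endothelial nitric oxide synthase, had the smallest p in FFC vs. SD (0.84, SE 0.34, BH-adjusted p = 0.0978, exact permutation test). Of 5 stromal genes only VIM1 passed, higher in FFC than in SD against the reference genes by 0.60 (SE 0.23, exact permutation test, BH-adjusted p = 0.0482), in a comparison in which 19.2% of all genes passed. The median of the stromal list was 0.59, against 0.55 of all genes. Relative to the panel mean no stromal gene passed in any pair in either test, with 1 at an unadjusted p under 0.05 (ACTA2 in FFC-DIA vs. FFC). Within strata of the inferred cDNA replicate number 0 genes passed in FFC vs. SD against the reference genes, MRC1 and VIM1 included. The limma fit called neither MRC1 nor VIM1 in FFC vs. SD, nor CD8A in FFC-DIA vs. SD, and it also called CD68, as higher, in FFC-DIA vs. SD relative to the panel mean.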

How the data were processed

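Kidney RNA of 28 animals was reverse transcribed, pre-amplified and run on a microfluidic qPCR chip with an intercalating dye. The authors deposited Cq values of 77 assays without normalization, as means over up to 2 cDNA replicates, after their own melting curve and quality curation; their efficiency correction was not repeated here. They also deposited a table of linear fold changes, ratios to the SD group. In it 60 of 73 genes hold their own values, 12 another gene's and 1 none, and 437 of 2016 numbers are whole (within 0.005), so it served as an alternative only. The 1 column with words in 4 cells was read by its remaining numbers. Files give no read depth; precision rests on the number of animals. The methods describe staggered cohorts, but the labels give no animal's cohort, so its part was not tested.

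The normalization and tests stand in the report: 77520 (FFC vs. SD), 6435 (FFC-DIA vs. SD) and 203490 (FFC-DIA vs. FFC) splits in the exact tests, and 100000 labellings over the 3 groups and for correlations (smallest p 1e-05). Intervals (95%) come from inverting the exact test. The deviations of same-numbered animals correlated with r of -0.34 to 0.11 in FFC vs. SD and -0.48 to -0.099 in FFC-DIA vs. FFC. In FFC-DIA vs. SD r ran from -0.47 to 0.54 and was over 0.1 in 4 of 7 pairs. The main tests did not take numbers as pairs, and only the replicate block did. Named genes were the 4 members, the 3 nearest genes of each, CCR2, and the 2 genes of smallest p per list. The members and lists were chosen with earlier results of these data known. The number of cDNA replicates, inferred from decimals, entered as strata of the permutations. The alternatives on the panel-mean scale were chosen after seeing the data. The procedures were tested on simulated data. Some genes of the panel are not reported here, but all were kept in the counts. Python 3.11.15, numpy 2.4.6, scipy 1.17.1, pandas 2.3.3, matplotlib 3.10.9, R 4.3.3 and limma 3.58.1 were used.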

Additional observations from a re-analysis of the deposited data

Results flagged for a closer look

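A sample far from the others of its group was looked for in the SD and FFC-DIA groups, for each of the 4 genes on both scales, in 16 tests of which chance alone marks about 1 in 20. In CXCL12, SD animal 6 had a log2 relative quantity of 1.22 where the next SD value was 0.07. In CXCL2, FFC-DIA animal 1 had a value relative to the panel mean of 0.58, where the next highest of its group had -0.31. The FFC group, with 13 animals, was too large for this test, so FFC animal 9 was not covered by it.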

How the results depend on the processing

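For the 12 differences between groups against the reference genes, the choice of reference gene moved the most. With GAPDH alone the signs turned for FFC vs. SD in CCL2 (-0.70), CXCL2 (-0.84), CXCL12 (-0.47) and CX3CL1 (-0.62) and for FFC-DIA vs. SD in CXCL12 (-1.19) and CX3CL1 (-0.92). These signs rest on SD animal 6, of late GAPDH: without it, a setting chosen after seeing the data, the values were 1.01, 0.83, 1.44 and 1.13 in FFC vs. SD, of which none passed, and 0.71 and 0.82 in FFC-DIA vs. SD, while CCL2 turned there (0.044). With all 4 reference genes and without that animal CXCL12 was 1.16 and passed in FFC vs. SD (exact permutation test, BH-adjusted p = 0.00538), and it was 0.58 in FFC-DIA vs. SD. CXCL12 in FFC vs. SD was no longer past the threshold with ACTB alone (0.39), TBP1 alone (0.51), ACTB and TBP1 (0.45), all 4 reference genes (0.53) or the panel mean (0.34). Nor was it with linear quantities (0.80), Bonferroni over all genes (0.86) or the number of cDNA replicates as strata (0.69). It stayed past the threshold with RPL4 alone, without late assays, with ranks, in limma and with the fold-change table. The replicate block gave 0.74 without a call, but 1 gene alone could not pass there, so this says nothing. With RPL4 alone CX3CL1 (1.53) and CXCL2 (1.30) also passed in FFC vs. SD, CCL2 turned in FFC-DIA vs. SD (0.15), and CXCL12 passed over the 3 groups (p = 0.00027), as it did with BH adjustment (p = 0.00199). CX3CL1 in FFC-DIA vs. FFC turned with ACTB alone (0.45), ACTB and TBP1 (0.16) and the panel mean (0.17). CXCL12 turned with ACTB alone in FFC-DIA vs. FFC (0.034) and, in FFC-DIA vs. SD, with TBP1 alone (-0.042), all 4 reference genes (-0.045) and the cDNA strata (-0.037), as did CXCL2 (0.081) and CCL2 (0.44) with these strata. With the panel mean CXCL2 turned in FFC vs. SD (-0.034) and CX3CL1 passed in FFC-DIA vs. SD (0.37). Against CXCL12 the cDNA strata turned CCL2 in FFC vs. SD (0.016) and FFC-DIA vs. SD (0.48) and CXCL2 in FFC-DIA vs. SD (0.12), and the replicate block turned CCL2 in FFC-DIA vs. FFC (0.030).

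The count of genes called in FFC vs. SD (14) was 53 with RPL4 alone, 9 with limma, 8 with ranks, 1 with Bonferroni and with the panel mean, and 0 with ACTB, TBP1 or GAPDH alone, ACTB and TBP1, or all 4. Without SD animal 6 it was 0 with GAPDH alone and 1 with all 4. In FFC-DIA vs. SD (2) it was 5 with TBP1 alone, 4 with ACTB and TBP1, 1 with RPL4 alone and 0 with GAPDH alone or all 4, or 0 and 2 without SD animal 6. In FFC-DIA vs. FFC (4) it was 7 with ACTB alone, 9 with TBP1 alone, 1 with RPL4 alone and 0 with GAPDH alone. Within the cDNA strata it was 0 in FFC vs. SD, where 1 gene alone could pass (smallest adjusted p 0.0446), 0 in FFC-DIA vs. SD, where it could not, and 4 in FFC-DIA vs. FFC. With the replicate block 0 genes passed in any pair, where the smallest p was 0.0156 for 7 pairs and 0.00781 for 8, so that 1 gene alone could not pass.

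These alternatives on the panel scale were chosen after seeing the data. CX3CL1 in FFC-DIA vs. SD did not pass with the panel median (0.21) or limma (0.37). The cDNA strata (0.32) and the replicate block (0.36) could not give a single gene an adjusted p under 0.05 in that comparison, so a call missing there says nothing. Signs turned in CXCL12 in FFC-DIA vs. SD with the panel median (-0.059) and the strata (-0.48), in CXCL2 in FFC vs. SD with the strata (0.11) and with ranks (a difference of 0.33 ranks), in CCL2 in FFC vs. SD with ranks (-0.55 ranks) and the block (-0.16), and in CCL2 in FFC-DIA vs. SD with the strata (0.0014). Correlations turned for CCL2 and CXCL2 with Spearman's rho (0.0044), without the 2 farthest animals (0.0027) and against the reference genes (0.38). Without the 2 farthest animals the group means were still those of all animals. The reference genes also turned CXCL2 and CX3CL1 (0.34) and CXCL12 and CX3CL1 (0.13), while CCL2 and CX3CL1 passed there (0.83).

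Each animal was also left out in turn. CXCL12 in FFC vs. SD then ran from 0.77 to 1.06 and passed in 11 of 20 cases, and over the 3 groups its p ran from 0.00015 to 0.00602, past Bonferroni without SD animal 6. CX3CL1 in FFC vs. SD ran from 0.53 to 0.81 and passed in 1 case, and in FFC-DIA vs. FFC from -0.20 to 0.077. CCL2 in FFC-DIA vs. SD ran from -0.43 to 0.11. The count of genes called in FFC vs. SD ran from 0 to 24. Against CXCL12, CCL2 ran from -0.52 to 0.082 in FFC vs. SD and from -0.46 to 0.033 in FFC-DIA vs. FFC, and CX3CL1 from -0.32 to 0.018 in FFC vs. SD and from 0.094 (without SD animal 7) to 0.43 in FFC-DIA vs. SD. CXCL2 against CXCL12 ran from -0.61 (without SD animal 6) to -0.17 (without SD animal 1) in FFC vs. SD. Relative to the panel mean, in FFC vs. SD CCL2 ran from -0.12 to 0.28 and CXCL2 from -0.20 to 0.13, in FFC-DIA vs. SD CXCL12 from -0.050 to 0.27, and in FFC-DIA vs. FFC CX3CL1 from 0.13 to 0.26.
The cause of these changes was not tested. The fold-change table was not run for CXCL2, whose row holds another gene's values. With 7 to 13 animals a group, the depth of the data is set by the number of animals.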
